A study of Mus musculus with 18 samples.

Results

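Neural crest cells arise at the border of the neural plate, leave the dorsal neural tube and form sensory and autonomic neurons, glia, pigment cells and the mesenchyme of the head. A small set of transcription factors marks their formation. The AP-2 factors Tfap2a and Tfap2b act at the plate border and in early crest, Foxd3, Sox9 and Ets1 act in newly specified crest, Sox10 marks migrating crest and its glial and pigment descendants, and Twist1 acts in crest mesenchyme. None of them is specific to the crest: Foxd3 is also a factor of the pluripotent epiblast, Sox9 is also made by neural tube progenitors, Tfap2a by surface ectoderm, Ets1 by blood and endothelium, and Twist1 by mesoderm.

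These 7 genes (Sox10, Sox9, Tfap2a, Tfap2b, Foxd3, Ets1 and Twist1) were taken by name from a table of 25239 genes, and all 7 passed the filter on low counts that left 16582 genes to test. The RNA-seq libraries came from mouse E14Tg2a embryonic stem cells that were wild type (WT) or lacked the 3 TET enzymes, which oxidise methylated cytosine (TET TKO, a single clone). Epiblast-like cells (EpiLCs, day 0), made with Activin A and Fgf, were compared with aggregates cultured for 2 or 6 days to form primordial germ cell-like cells (PGCLCs), with or without the cytokines BMP4, BMP8a, SCF, LIF and EGF. There were 9 conditions with 2 libraries each: WT EpiLC, WT day 2 and day 6 without cytokines, WT day 6 with cytokines, TKO EpiLC, and TKO day 2 and day 6 without and with cytokines. WT aggregates at day 2 with cytokines were not analysed here. The labels call the WT libraries of day 6 with cytokines aggregates, whereas the study's legend describes cells sorted for the surface markers SSEA1 and CD61 there and whole aggregates elsewhere. If they were sorted, sorting and cytokines cannot be told apart in WT. No label names neural crest cells, and in bulk RNA fewer cells of a type and less RNA per cell cannot be told apart.

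Libraries held 11286050 to 41257861 counted fragments, of which the ribosomal locus Rn45s took 16.2 to 47.6%. As a check of the labels, the 3 deleted genes were lower in TKO in 8 of 12 comparisons with WT (3 genes at 4 stages), Tet3 at all 4. In EpiLCs the log2 fold change was -2.82 for Tet1 and -2.64 for Tet3, and -1.17 for Tet2 (edgeR adjusted p = 0.141, not called). Also not called were Tet1 and Tet2 at day 2 without cytokines (-0.30 and 0.61) and Tet1 at day 6 without cytokines (-0.12). The deletions were of the open reading frames, and whether the counted fragments came from exons outside them was not tested. The 2 WT libraries of day 6 without cytokines stood apart from each other: their median absolute log2 difference over all genes tested was 0.43, against 0.16 to 0.30 in the other conditions. The main values that moved with either of them are given with and without it.

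The 250 bases before the annotated start are shown for the members that have a promoter entry in RefSeq (build GRCm38.p6), because CpG dinucleotides, in capitals, are the sites at which TET enzymes act. They cover 4 of the 7 members, with 2 start sites for Tfap2a. The Tfap2a sequences lie on the minus strand at chr13:40733796-40734045 and chr13:40734921-40735170, and those of Tfap2b, Foxd3 and Twist1 lie on the plus strand at chr1:19211804-19212053, chr4:99656049-99656298 and chr12:33957421-33957670.
Tfap2a, start site 1: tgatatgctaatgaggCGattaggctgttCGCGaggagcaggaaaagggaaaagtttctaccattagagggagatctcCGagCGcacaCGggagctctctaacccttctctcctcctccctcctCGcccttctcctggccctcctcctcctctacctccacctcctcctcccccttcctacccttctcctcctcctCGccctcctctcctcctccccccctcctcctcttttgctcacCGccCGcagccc
Tfap2a, start site 2: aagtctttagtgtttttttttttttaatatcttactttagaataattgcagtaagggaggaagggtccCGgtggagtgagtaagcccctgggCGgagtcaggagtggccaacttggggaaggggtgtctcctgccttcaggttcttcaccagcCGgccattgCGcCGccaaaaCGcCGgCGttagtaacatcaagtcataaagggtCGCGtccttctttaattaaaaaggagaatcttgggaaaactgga
Tfap2b: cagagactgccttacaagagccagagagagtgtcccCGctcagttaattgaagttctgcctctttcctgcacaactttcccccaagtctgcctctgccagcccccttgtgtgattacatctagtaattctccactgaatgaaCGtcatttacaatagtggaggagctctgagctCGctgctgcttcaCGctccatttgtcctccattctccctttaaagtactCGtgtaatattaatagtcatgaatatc
Foxd3: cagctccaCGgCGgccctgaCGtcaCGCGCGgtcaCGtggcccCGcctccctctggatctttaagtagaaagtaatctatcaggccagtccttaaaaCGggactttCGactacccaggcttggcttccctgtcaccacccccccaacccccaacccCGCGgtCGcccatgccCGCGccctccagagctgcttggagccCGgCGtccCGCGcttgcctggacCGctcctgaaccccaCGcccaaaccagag
Twist1: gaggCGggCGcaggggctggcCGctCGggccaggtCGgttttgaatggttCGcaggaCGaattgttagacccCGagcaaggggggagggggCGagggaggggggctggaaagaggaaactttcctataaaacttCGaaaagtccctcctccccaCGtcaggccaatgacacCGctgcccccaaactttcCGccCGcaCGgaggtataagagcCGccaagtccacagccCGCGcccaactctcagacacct
Foxd3 had 21 CpGs and Twist1 had 18 in this window, both above the upper quartile of 16 over 32851 promoters. Tfap2a had 10 at either start site and Tfap2b had 5, against a median of 6. The AP-2 motif GCCNNNGGC, which reads the same on both strands, was in none of the 5 windows and in 13.7% of all promoters. DNA methylation at these sites was not measured here.

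In the mm10 build, with GENCODE M21 gene models, Sox10 lies at chr15:79154908-79165240 and Sox9 at chr11:112782224-112787760. Tfap2a lies at chr13:40715302-40738376, where 3 annotated antisense genes overlap it, and Ets1 at chr9:32636221-32757820, where 1 does. Tfap2b lies at chr1:19208914-19238576, Foxd3, a gene of a single exon, at chr4:99656299-99658622, and Twist1 at chr12:33957671-33959829. Fragments were counted over exons without regard to strand, so fragments of exons that Tfap2a or Ets1 share with these genes cannot be told apart. The overlaps given are of whole genes, and whether exons overlap was not tested.

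Tfap2a and Tfap2b, the AP-2 members, differed in when and where they were high. Values here are normalised counts, that is fragments divided by DESeq2 size factors, for replicates 1 and 2. Tfap2a was at 11.2 and 13.9 in WT EpiLCs, 9.75 and 11.7 in WT day 2 without cytokines, 317 and 418 in WT day 6 without cytokines, and 23.6 and 48.3 in WT day 6 with cytokines. In TKO it was at 56.5 and 48.4 in EpiLCs, 325 and 544 at day 2 and 440 and 591 at day 6 without cytokines, and 75.9 and 84.4 at day 2 and 85.7 and 76.9 at day 6 with cytokines. The TKO libraries of day 2 without cytokines thus already lay within (325) or above (544) the range of the WT libraries of day 6 without cytokines. The means of the 3 highest conditions, TKO day 6, TKO day 2 and WT day 6 without cytokines, stood at 516, 435 and 367. Their ranges overlapped from neighbour to neighbour.

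Tfap2b was at 0 counts in both WT EpiLC libraries, which allows up to 3 counts (4.82 and 1.67 normalised), and at 9 and 1 counts in WT day 2 without cytokines. In WT day 6 without cytokines it reached 283 and 1570 normalised counts (625 and 1352 fragments), and the 2 replicates were far apart. With cytokines at day 6, WT libraries had 1 count each. In TKO, Tfap2b was at 15.6 and 16.8 at day 2 and 37.7 and 24 at day 6 without cytokines, and at 0 or 1 counts in the 6 EpiLC and cytokine libraries. The condition of WT day 6 without cytokines held all of the high values, and its lowest library lay above the highest TKO library.

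**Figure D1:**
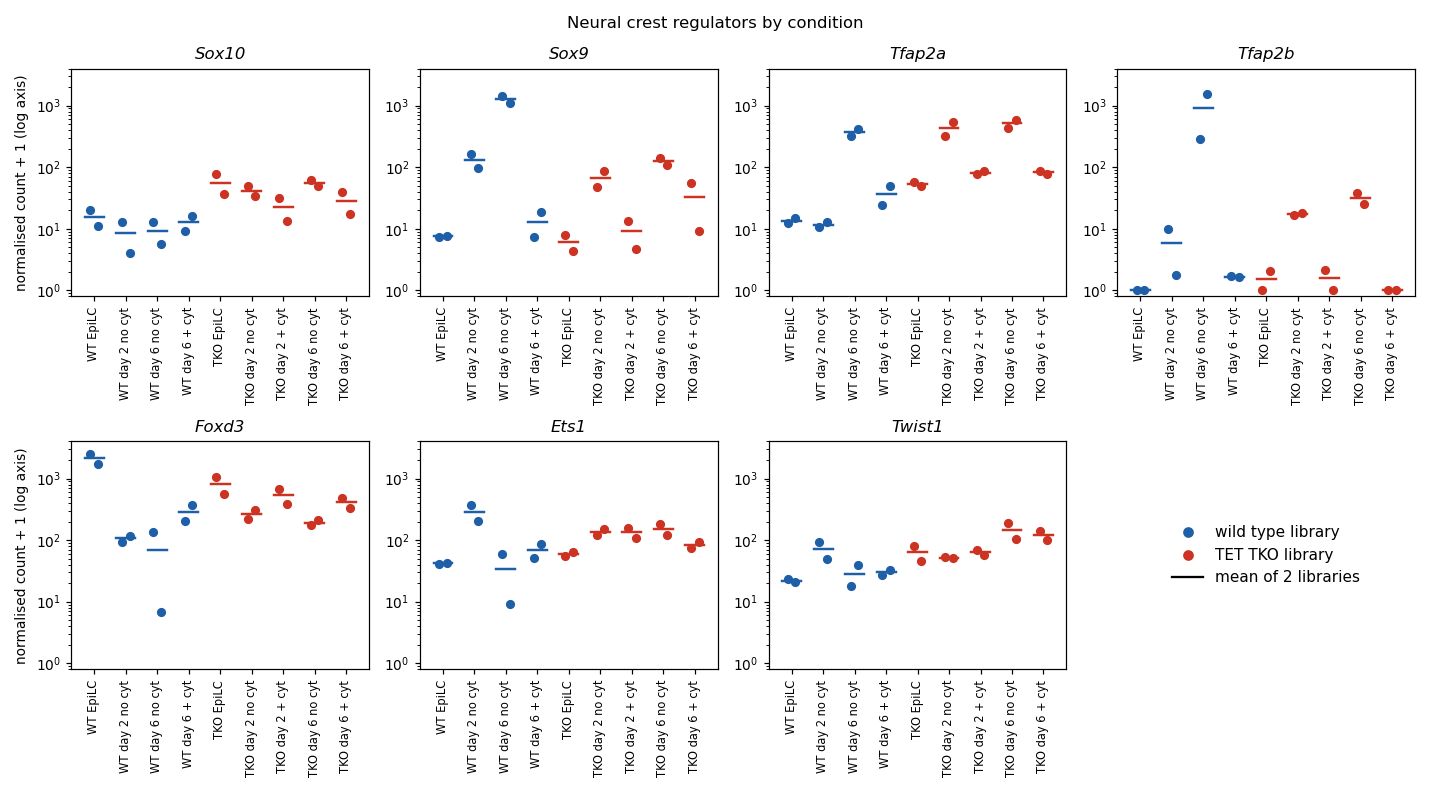
Normalised count plus 1 (log axis) of each member in the 9 conditions, WT in blue and TKO in red, with a point for each library and a line at the mean of 2. Sox9 and Tfap2b peak in WT day 6 without cytokines, Tfap2a is as high in TKO day 2 and day 6 without cytokines as in WT day 6, and Foxd3 is highest in WT EpiLCs.

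Sox9 and Sox10, which belong to the same group of Sox factors, shared little. Sox9 was at 6.43 and 6.67 in WT EpiLCs, 165 and 97.9 in WT day 2, 1440 and 1120 in WT day 6 without cytokines, and 6.26 and 18 in WT day 6 with cytokines. In TKO it was at 6.94 and 3.3 in EpiLCs, 46.7 and 85.3 at day 2 and 140 and 109 at day 6 without cytokines, and 12.5 and 3.72 at day 2 and 55.4 and 8.04 at day 6 with cytokines. WT day 6 without cytokines stood alone at the top, and WT day 2 and TKO day 6 without cytokines overlapped next below it.

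Sox10 was low in all 18 libraries. Its normalised counts ran from 3.11 to 19.3 in the 8 WT libraries and from 12.4 to 75.4 in the 10 TKO libraries. In WT it was at 19.3 and 10 in EpiLCs, 11.7 and 3.11 at day 2 and 11.8 and 4.63 at day 6 without cytokines, and 8.34 and 15.4 at day 6 with cytokines. In TKO it was at 75.4 and 35.2 in EpiLCs, 47.7 and 33.6 at day 2 and 60.3 and 48 at day 6 without cytokines, and 30.6 and 12.4 at day 2 and 38.6 and 16.1 at day 6 with cytokines. No WT library reached the TKO libraries of EpiLCs or of aggregates without cytokines. The WT aggregates in which Sox9 and Tfap2b were highest therefore held almost no Sox10 transcript.

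Foxd3 had the opposite course to Sox9. It was at 2540 and 1730 in WT EpiLCs, 93.6 and 117 in WT day 2 without cytokines, 132 and 5.79 in WT day 6 without cytokines, and 201 and 373 in WT day 6 with cytokines. In TKO it was at 1060 and 556 in EpiLCs, 220 and 303 at day 2 and 173 and 210 at day 6 without cytokines, and 670 and 392 at day 2 and 489 and 333 at day 6 with cytokines. The lowest value, 5.79, came from replicate 2 of WT day 6 without cytokines (5 fragments against 291 in replicate 1), and only 0.488% of the genes tested differed more between these 2 libraries. Per kilobase of exon, Foxd3 in WT EpiLCs was the most abundant member anywhere, at 51.5 CPM per kb (counts scaled to library depth with TMM factors), against 17.4 for Sox9 and 8.24 for Tfap2b at their peaks in WT day 6 without cytokines.

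Ets1 was at 40.2 and 41.7 in WT EpiLCs, 365 and 204 in WT day 2, 58.5 and 8.11 in WT day 6 without cytokines, and 49.4 and 84.9 in WT day 6 with cytokines. In TKO it was at 54.6 and 63.8 in EpiLCs and between 72.2 and 184 in the 8 aggregate libraries. WT day 2 was thus the highest condition and did not overlap the next. Twist1 was at 22.5 and 19.5 in WT EpiLCs, 90.7 and 48.2 at day 2, 17.2 and 38.2 at day 6 without and 25.7 and 32.2 at day 6 with cytokines. In TKO it was at 80.4 and 45.1 in EpiLCs, 52.9 and 49.3 at day 2 and 187 and 102 at day 6 without cytokines, and 68 and 55.9 at day 2 and 139 and 101 at day 6 with cytokines. TKO day 6, with or without cytokines, held its highest values.

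**Figure D2:**
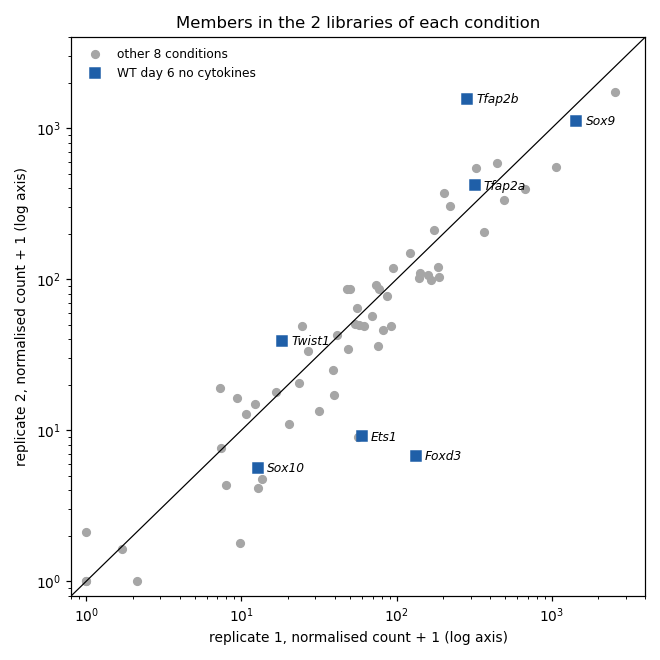
Normalised count plus 1 in replicate 2 against replicate 1 (both log axes) for the 7 members in the 9 conditions, with WT day 6 without cytokines as blue squares, the other 8 conditions in grey and the line of equality in black. Foxd3 (132 and 5.79) and Ets1 (58.5 and 8.11) lie below the line and Tfap2b (283 and 1570) above it in that condition, while Sox9 and Tfap2a lie near it.

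The comparison over time in WT without cytokines followed the members as EpiLCs were left in aggregates with no germ cell signal. From EpiLC to day 2, Sox9 rose by 4.33 (log2 fold change, SE 0.70), Ets1 by 2.83 (SE 0.57) and Twist1 by 1.78 (SE 0.48), whereas Foxd3 fell by 4.28 (SE 0.71). These were 4 of 7 members called by edgeR's quasi-likelihood test at an adjusted p (Benjamini-Hochberg) below 0.05, where 34.4% of all genes tested were called. Tfap2a differed by -0.22 (SE 0.45). Tfap2b was not called by edgeR (adjusted p = 0.0964) but was by DESeq2 (adjusted p = 0.0163). In edgeR refits it was called without replicate 2 of WT day 2 or without either library of WT day 6 without cytokines. The Twist1 call was lost without replicate 2 of WT EpiLC (adjusted p = 0.0848, edgeR) or replicate 1 of WT day 2 (adjusted p = 0.116, edgeR).

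Between day 2 and day 6 without cytokines, Tfap2b rose by 7.62 (SE 0.91), Tfap2a by 5.03 (SE 0.40) and Sox9 by a further 3.25 (SE 0.55), whereas Ets1 fell by 3.02 (SE 0.56) and Twist1 by 1.41 (SE 0.47). These were 5 of 7 members, where 39.5% of genes were called. Neither the fall of Ets1 nor that of Twist1 was called in a fit of only these 4 libraries (Ets1 -3.08, adjusted p = 0.0667, and Twist1 -1.41, adjusted p = 0.172, edgeR). Each of the 2 day 6 libraries decided sizes here: without replicate 1 the change of Foxd3 went from -0.53 (SE 0.67, not called) to -4.20 (called) and that of Ets1 to -5.15, while without replicate 2 Ets1 was at -2.33 and Tfap2b at 5.90. Without replicate 1 of day 2, Tfap2b was at 9.95, and without replicate 2 of day 2 at 6.65. The Twist1 call was lost without replicate 1 of day 2 (adjusted p = 0.219, edgeR) or replicate 1 of day 6 (adjusted p = 0.204, edgeR), and Twist1 was at -2.05 without replicate 2 of day 6.

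Over the whole course from EpiLC to day 6 without cytokines, Sox9 rose by 7.57 (SE 0.73), Tfap2a by 4.81 (SE 0.39), and Tfap2b was at least 285-fold higher, set against a floor of 3 counts in each EpiLC library. Foxd3 fell by 4.81 (SE 0.73). The 4 of 7 members called compare with 60.7% of all genes, so most genes changed over this interval. The bound for Tfap2b was 483-fold without replicate 1 of day 6 and 87.4-fold without replicate 2. Foxd3 was at -8.48 without replicate 1 of day 6 and at -4.02 without replicate 2, and Ets1, at -0.19 (not called), was at -2.32 (called) without replicate 1.

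Cytokines are the signal that directs such aggregates towards germ cells. In WT day 6 with cytokines, Tfap2a was higher than in EpiLCs by 1.51 (SE 0.39) and Foxd3 lower (log2 fold change -2.84, SE 0.66), 2 of 7 members where 40.6% of genes were called. Tfap2a was at 0.90 and not called without replicate 2 of that condition (adjusted p = 0.137, edgeR). Against WT day 6 without cytokines, the log2 fold change was -6.65 for Sox9 (SE 0.67) and -3.30 for Tfap2a (SE 0.34), Tfap2b was at least 460-fold lower, and Foxd3 was higher by 1.97 (SE 0.66). These were 4 of 7 members, where 58.2% of genes were called. The bound for Tfap2b was 780-fold without replicate 1 of the cultures without cytokines and 141-fold without replicate 2. The Foxd3 value rests on single libraries: it was 5.64 without replicate 1 of the cultures without cytokines, 1.17 without replicate 2, and 1.47 and not called without replicate 2 of those with cytokines (adjusted p = 0.13, edgeR), and it was not called in a fit of only these 4 libraries (2.00, adjusted p = 0.235, edgeR). Without that last library Sox9 was at -7.60 and Tfap2a at -3.90, and Ets1, at 0.94 (not called), was at 3.07 (called) without replicate 1 of the cultures without cytokines.

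Loss of the TET enzymes was compared with WT at each shared stage. In EpiLCs, Tfap2a was higher in TKO by 2.03 (SE 0.40) and Twist1 by 1.62 (SE 0.48), 2 of 7 members where 10.8% of genes were called. Sox10 differed by 2.03 (SE 0.68, edgeR adjusted p = 0.0694) and Foxd3 by -1.36 (SE 0.62, edgeR adjusted p = 0.178), and neither passed, although the groups did not overlap in either gene. DESeq2 called Sox10 (1.98, adjusted p = 0.0439) and not Foxd3. The Tfap2a call was lost without replicate 2 of WT EpiLC (2.26, adjusted p = 0.0568, edgeR). The Twist1 call held in 7 of 18 refits that each left out 1 library and not in a fit of only these 4 libraries (adjusted p = 0.0626, edgeR). Sox10 (2.05) and Foxd3 (-1.36) were called when either WT library of day 6 without cytokines was left out.

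At day 2 without cytokines, Tfap2a was higher in TKO by 5.28 (SE 0.40), the largest difference between the genotypes among the members, and Sox10 was higher by 2.46 (SE 0.72). These were 2 of 7 members, where 32.8% of genes were called. Sox9 differed by -1.02 (SE 0.55), Ets1 by -1.10 (SE 0.52) and Foxd3 by 1.27 (SE 0.66), and none of these 3 passed, although Foxd3 and Ets1 were called when either WT library of day 6 without cytokines was left out, and Tfap2b (1.81, SE 0.99) without replicate 1 of them. The Tfap2a call held in 18 of 18 refits that left out a library, at 4.87 to 5.60. The Sox10 value was 3.61 without replicate 1 of WT day 2, and its call was lost without replicate 2 (1.75, adjusted p = 0.165, edgeR) or without replicate 1 of TKO day 2 (2.17, adjusted p = 0.0966, edgeR).

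By day 6 without cytokines the order of the genotypes differed from gene to gene. Sox10 was higher in TKO by 2.62 (SE 0.68), Twist1 by 2.46 (SE 0.47) and Ets1 by 2.09 (SE 0.55), whereas the log2 fold change was -4.87 for Tfap2b (SE 0.76) and -3.34 for Sox9 (SE 0.55). Tfap2a, which was far apart at day 2, now differed by 0.51 (SE 0.30, edgeR adjusted p = 0.167), with an interval of 2 SE on either side from -0.10 to 1.11. The 5 members called compare with 55.4% of all genes. All 5 calls held in 18 of 18 refits that left out a library, but sizes moved with the 2 WT libraries: without replicate 1 Ets1 was at 4.22, Sox10 at 3.53, Tfap2b at -5.64 and Foxd3 at 5.03 (called, against 1.36 and not called), and without replicate 2 Ets1 was at 1.40, Tfap2b at -3.16 and Twist1 at 3.10. Ets1 was not called when the fit held only these 4 libraries (2.23, adjusted p = 0.101, edgeR).

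**Figure D3:**
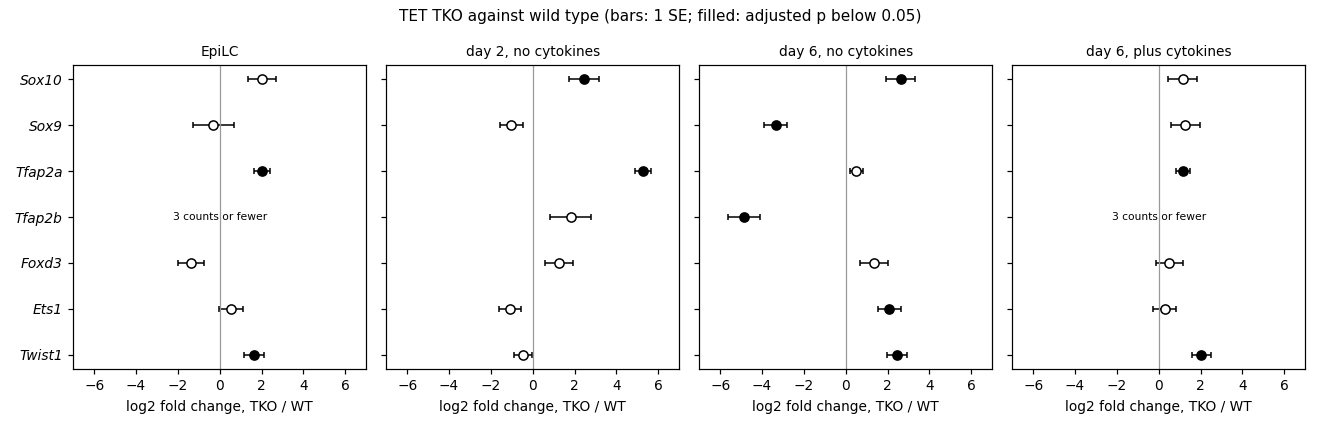
Log2 fold change of TKO over WT for each member at the 4 shared stages, with bars of 1 SE and filled points at an adjusted p below 0.05, and with no point for Tfap2b where both groups had 3 counts or fewer. Tfap2a stands at 5.28 at day 2 without cytokines and at 0.51 at day 6, while Sox9 and Tfap2b are below 0 and Sox10, Ets1 and Twist1 above 0 at day 6 without cytokines.

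With cytokines at day 6, Twist1 was higher in TKO than in WT by 2.04 (SE 0.46) and Tfap2a by 1.16 (SE 0.34), 2 of 7 members where 18.9% of genes were called. The Tfap2a call was lost without replicate 1 of WT (0.74, adjusted p = 0.267, edgeR) or without replicate 1 or 2 of TKO (adjusted p = 0.128 and 0.0725, edgeR) or in a fit of only these 4 libraries (adjusted p = 0.0649, edgeR), and it was at 1.76 without replicate 2 of WT. The Twist1 call was lost without replicate 1 of WT (adjusted p = 0.0825, edgeR) or of TKO (adjusted p = 0.0535, edgeR). Sox9 differed by 1.26 (SE 0.69, not called) with TKO libraries at 55.4 and 8.04, and was at 2.16 (called) without the second of these. Per the study's legend the WT side was sorted and the TKO side was not, and the part of that difference was not tested.

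Within TKO, members were called between EpiLC and day 2 without cytokines and not between day 2 and day 6. From EpiLC to day 2 without cytokines, Sox9 rose by 3.62 (SE 0.77) and Tfap2a by 3.03 (SE 0.34), and Tfap2b was at least 5.16-fold higher, 3 of 7 members where 18.7% of genes were called. The Sox9 call was lost without replicate 2 of TKO EpiLC (3.21, adjusted p = 0.0568, edgeR), and was at 4.24 without replicate 1. The Tfap2b call held in 6 of 18 refits that left out a library. Foxd3 (-1.65) and Ets1 (1.18), not called, were called when either WT library of day 6 without cytokines was left out. From day 2 to day 6 without cytokines, 0 of 7 members were called by edgeR and 0 by DESeq2, 1 (Twist1, 1.51, SE 0.45) had an unadjusted edgeR p below 0.05, and 0.476% of all genes were called.

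With cytokines, 0 of 7 members were called in TKO from EpiLC to day 2, by edgeR or DESeq2, and 0 had an unadjusted edgeR p below 0.05, where 14.3% of genes were called. From day 2 to day 6 with cytokines, 0 of 7 were called by either tool and 1 (Sox9, 1.84, SE 0.80) had an unadjusted edgeR p below 0.05, where 6% of genes were called. Sox9 was called (2.74) without replicate 2 of TKO day 6 with cytokines. Ets1, at 1.16 (not called) from EpiLC to day 2, was called at the same size when either WT library of day 6 without cytokines was left out.

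Tfap2a was also lower with cytokines in TKO aggregates. At day 2, Tfap2a fell by 2.42 (SE 0.33) and Sox9 by 2.96 (SE 0.73) relative to TKO without cytokines, 2 of 7 members where 4.52% of genes were called. The Sox9 call held in 12 of 18 refits that left out a library. Tfap2b was not called by edgeR (adjusted p = 0.0996) but was by DESeq2 (adjusted p = 0.0394). In edgeR refits it was called when either WT library of day 6 without cytokines was left out. At day 6, Tfap2a fell by 2.65 (SE 0.33) and Tfap2b was at least 7.27-fold lower, again 2 of 7 members, where 5.61% of genes were called. The Tfap2b call held in 14 of 18 refits, and Foxd3 (1.12, not called) was called without either of the same WT libraries. Sox9 differed by -2.05 (SE 0.61, edgeR adjusted p = 0.0614) at day 6. DESeq2 called it (-2.02, adjusted p = 0.0176), as did a fit of only the libraries compared (-2.11, adjusted p = 0.0387, edgeR). It was called at -3.92 without replicate 1 of TKO day 6 with cytokines, and at -2.06 and -2.07 without replicate 1 and replicate 2 of WT day 6 without cytokines.

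Whether the change from EpiLC to day 6 without cytokines differed between the genotypes was tested as an interaction. The rise of Tfap2a was smaller in TKO (difference in log2 fold change -1.52, SE 0.50), and so was the fall of Foxd3 (difference 2.72, SE 0.91), 2 of 7 members where 37% of genes were called. The difference for Sox9 was -3.03 (SE 1.19, edgeR adjusted p = 0.0581), and that for Sox10 was 0.59 (SE 0.95). The Tfap2a call held in 13 of 18 refits that left out a library. The Foxd3 call held in 14 of 18, with a value of 6.39 without replicate 1 of WT day 6 and 1.92 without replicate 2, and neither DESeq2 (2.86, adjusted p = 0.06) nor a fit of only the libraries compared (adjusted p = 0.111, edgeR) called it. Sox9 was called by DESeq2 (-3.02, adjusted p = 0.00955) and in the fit of only the libraries compared (-3.04, adjusted p = 0.00713, edgeR). Tfap2b was called by DESeq2 (adjusted p = 0.0141) and not by edgeR (adjusted p = 0.211). Sox9 was called without replicate 2 of WT day 6 without cytokines or without either TKO library of day 6 with cytokines, and Ets1 (1.54, not called) was at 3.67 and called without replicate 1 of WT day 6 without cytokines.

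Other genes of the crest programme were taken from lists of known genes, and their counts read against the 60.7% of all genes called from WT EpiLC to day 6 without cytokines. From EpiLC to day 6 without cytokines, 17 of 21 other crest specifiers and genes of the epithelial to mesenchymal transition rose and 0 fell, with a median log2 fold change of 5.30 (5.12 with the genes at the floor set to their bound) against 0.05 over all genes. The nuclear receptors Nr2f1 and Nr2f2 were at least 970-fold and 781-fold higher. Of 13 neural plate border genes 7 rose and 0 fell, a share below that of all genes, with a median of 4.47, and the paired box genes Pax3 and Pax7 were at least 387-fold and 184-fold higher. Of 12 genes of sensory, autonomic and enteric neurons 10 rose and 1 fell (median 4.46), with the proneural factor Neurog2 at least 418-fold higher (246-fold without replicate 2 of day 6). Pax3, Pax7, Nr2f1 and Neurog2 are also genes of neural tube progenitors. The plate border list depended on the library: without replicate 1 of day 6, 8 rose and 0 fell (median 5.49), and without replicate 2, 6 rose and 3 fell (median 0.11). The median of the specifiers was 5.12 and 4.55 in the same refits, with 16 and 17 higher, and that of the neuronal list 2.48 and 5.22, with 9 of 12 and 11 of 13 tested genes higher. These list values without a library were computed after seeing the data.

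The lists closest to differentiated crest were mixed. Of 5 tested genes of Schwann cells and glia 3 rose and 1 fell, but Fabp7, at least 2020-fold higher (3030-fold without replicate 1 of day 6 and 1020-fold without replicate 2), is also a radial glia gene, and Erbb3, the neuregulin receptor of the Schwann lineage, fell by 4.97 (SE 0.31). Of 7 melanocyte genes 2 rose and 2 fell, with the endothelin receptor Ednrb at least 982-fold higher and the pigment gene Pmel at -3.97 (SE 0.73). Of 13 ectomesenchyme genes 5 rose and 2 fell, with a median of 2.24 (1.79 with the bounds). Among relatives of the members, Sox8 rose by 5.12 (SE 0.57) in the list of which 6 of 9 rose and 1 fell.

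Markers of other cell types moved in the same libraries. All 11 of 11 markers of neural tube progenitors and neurons rose from WT EpiLC to day 6 without cytokines (median 6.09), and their summed level was 3040 and 2670 CPM there, against 551 and 529 in WT day 2 and 152 and 167 in TKO day 6 without cytokines. No marker of this list was at 3 counts or fewer in WT at day 2 or day 6 without cytokines. The 6 astroglial markers summed to 266 and 604 CPM in WT day 6 without cytokines and to 19.3 to 44.3 CPM in the other libraries. Most of the sum in these 2 day 6 libraries was Fabp7, also a radial glia gene, at 3310 and 9820 normalised counts. The median log2 fold change of the 6 from WT EpiLC to day 6 without cytokines was 2.69, or 1.33 with the bounds. The part of these cells in the levels of Sox9, Tfap2a and Tfap2b was not tested.

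In TKO day 6 without cytokines, against WT, where 55.4% of all genes were called, 13 of 21 other crest specifiers were lower and 3 higher (median -1.74), and 8 of 12 neuronal genes were lower and 2 higher (median -2.06), with Neurog2 at least 386-fold lower (227-fold without replicate 2 of WT). The plate border list split, with a share called near that of all genes: 5 of 13 were lower, among them Pax7 at -5.89 (SE 0.66) and Pax3 at -4.43 (SE 0.63), and 3 were higher, with the homeobox genes Dlx5 and Dlx6 at least 62.3-fold and 17-fold higher (43.4-fold and 11.9-fold without replicate 1 of WT, 111-fold and 30.3-fold without replicate 2). Its median of -0.74 was -1.19 without replicate 1 of WT (8 lower, 3 higher) and 0.85 without replicate 2 (3 lower, 6 higher). The median of the neuronal list was -0.20 without replicate 1 (5 lower, 1 higher) and -3.25 without replicate 2 (10 of 13 tested lower, 2 higher), and that of the specifiers -2.17 and -1.14. Of 7 melanocyte genes 5 were higher and 1 lower (median 4.42, or 3.02 with the bounds), with the melanin enzymes Dct and Tyrp1 at least 11.8-fold and 8.26-fold higher (21-fold and 14.7-fold without replicate 2 of WT). Dct was at 28 and 29 normalised counts in these TKO libraries, a low level. The summed level of the 8 listed melanocyte genes went the other way, at 125 and 113 CPM in TKO and 291 and 170 CPM in WT, and Ednrb was lower in TKO (log2 fold change -4.17, SE 0.41). All 11 of 11 neural tube markers were lower (median -4.75).

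Dlx5 and Dlx6 are also genes of surface ectoderm and placodes, as is Tfap2a. Of 9 tested markers of non-neural ectoderm and placodes 7 were higher and 1 lower in TKO than in WT at day 6 without cytokines (median 4.92, or 4.19 with the bounds). At that stage 55.4% of all genes were called. The 10 listed markers summed to 214 and 235 CPM in TKO and 36.1 and 36.5 CPM in WT, and 4 and 5 of them were at 3 counts or fewer in WT against 1 and 0 in TKO. At day 2 without cytokines, where Tfap2a differed most between the genotypes, 3 of 9 were higher and 0 lower (median 1.41, or 1.22 with the bounds, where 32.8% of all genes were called). Their sums then were 145 and 216 CPM in TKO and 169 and 182 CPM in WT and overlapped, and Dlx5 was at 67.5 and 138 normalised counts in TKO and 2.92 and 0 in WT. The sums of this ectoderm list were highest in TKO day 2 with cytokines, at 407 and 382 CPM. There Tfap2a was at 75.9 and 84.4 normalised counts, against 325 and 544 in TKO day 2 without cytokines. Of 7 mesoderm markers, a source of Twist1, 4 were higher and 0 lower in TKO at day 6 without cytokines. This share was near the 55.4% of all genes called. Of 7 pluripotency markers 6 were higher and 0 lower, with sums of 1390 and 1470 CPM in TKO and 15 and 38.6 CPM in WT. Foxd3, also a factor of the pluripotent epiblast, was not called in this comparison (1.36, SE 0.67, edgeR adjusted p = 0.096). The 7 listed endothelial and blood markers, relevant to Ets1, summed to 58.8 and 65.9 CPM in TKO and 7.4 and 1.9 CPM in WT. Of these, 2 and 2 were at 3 counts or fewer in the TKO libraries and 1 and 5 in those of WT. Such a sum is set mainly by its most abundant genes. The median log2 fold change of the 5 tested was 1.49, and it was 4.77 without replicate 1 of WT and 0.86 without replicate 2. Their sum was highest in WT day 6 with cytokines, at 170 and 158 CPM. The part of any of these in the members' levels was not tested.

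With cytokines in WT the crest lists moved in different directions, where 58.2% of all genes were called. At day 6, 17 of 21 other crest specifiers were lower with than without cytokines and 0 were higher (median -2.90), as were 7 of 13 plate border genes, with 1 higher, and 10 of 12 neuronal genes, with 2 higher (median -3.68). Pax3 was at least 625-fold lower and Nr2f1 at -8.82 (SE 0.87). Without replicate 1 of the cultures without cytokines the neuronal list had 6 of 12 lower (median -1.27) and the border list 10 of 13 lower and 1 higher (median -2.07), and without replicate 2 the border list had 6 lower and 4 higher (median -0.99). Of 7 melanocyte genes 4 were higher and 1 lower (median 3.03, or 2.92 with the bounds), with sums of 446 and 403 CPM against 291 and 170 CPM, and of 5 Schwann and glial genes 2 were higher and 1 lower (median 0.84). Of 13 ectomesenchyme genes 3 were lower and 1 higher. Of 7 germ cell markers 7 were higher, with sums of 547 and 438 CPM against 6.35 and 6.55 CPM, and Tfap2c, the AP-2 factor of germ cells, was higher by 6.43 (SE 0.30). The melanocyte and the germ cell lists both had their highest sums of all conditions in WT day 6 with cytokines. The part of germ cells in the melanocyte sums was not tested. In TKO day 6, 4 of 21 crest specifiers were lower and 1 higher with cytokines, and 1 of 13 border genes was lower. In that comparison 5.61% of all genes were called.

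**Figure D4:**
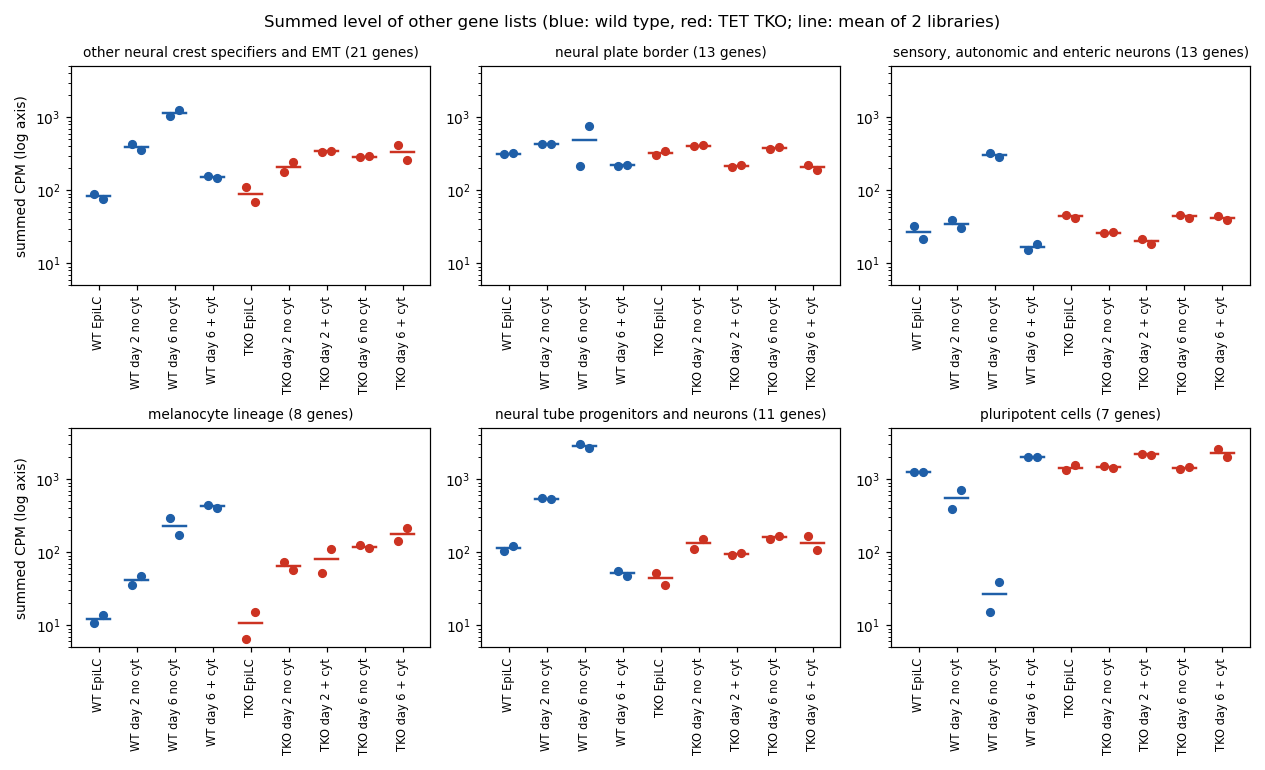
Summed CPM (log axis) of 6 gene lists in each library, WT in blue and TKO in red, with a line at the mean of 2 libraries. Crest specifiers, neuronal genes and neural tube markers are highest in WT day 6 without cytokines, where pluripotency markers are lowest, and the 2 libraries of that condition differ in plate border genes (215 and 753 CPM).

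The genes most like each member over the 9 condition means of log2 CPM, among 12199 or 12200 genes with a mean count of 50 or more, are given as a description. The conditions share libraries, depth and a common time course. Sox9 was most like Sdk2 (r = 0.990), Ggt7 (0.987) and Ttll7 (0.985), and Tfap2b most like Gria2 (0.995), a glutamate receptor subunit, Pcdhb16 (0.981) and Tenm2 (0.979). Foxd3 was most like Eif3d (0.986), a translation initiation factor, Daxx (0.981) and Zpr1 (0.979). Tfap2a was most like Dok4 (0.957), Slf1 (0.935) and Rnf11 (0.926), and Sox10 most like Tlk2 (0.987), Pura (0.951) and Creb3l1 (0.948). Ets1 was most like Nfkb2 (0.946), Col7a1 (0.942) and Rbms1 (0.930), and Twist1 most like Slc33a1 (0.968), Casp8 (0.919) and Sec14l2 (0.913). These names depended on the measure. By Spearman in place of Pearson correlation, only Sox10 kept any of its named genes (Tlk2 and Creb3l1). Among the members themselves, Sox9 had an r of 0.92 with Tfap2b, 0.52 with Tfap2a and -0.91 with Foxd3 over the 9 means.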

How the data were processed

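RNA was depleted of ribosomal RNA and sequenced from strand-marked libraries. The authors trimmed reads (Trim Galore 0.5.0, cutadapt 1.16), aligned them to mm10 with STAR 2.7.1a and counted fragments per gene with featureCounts (Subread 1.5.2) over RefSeq exons, without strand and without multi-mapped fragments. The deposited values are raw counts per gene, with 33 rows of command text left out.

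A model of 9 condition means was fitted to the counts of 16582 genes with edgeR 4.0.16 (TMM factors, quasi-likelihood test, Benjamini-Hochberg adjustment, threshold 0.05), in R 4.3.3 with limma 3.58.1. The SE of a log2 fold change is its size over the square root of F. Levels are counts over DESeq2 1.42.0 size factors. A group with 3 counts or fewer in each library was set to 3 counts per library for a fold. Floors cover counting error only. The script was tested on simulated data.

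The members and lists were chosen with earlier results of these data known. Named genes are the members, the list genes called with the largest changes, and the 3 genes of highest correlation with each member. The lists stand for plate border, crest, its derivatives and other cell types, and some of their genes are not reported here by name. The study's legend calls the replicates biological, and the labels do not say whether they are separate cultures. P-values measure only the spread between these libraries. Alternatives were another test, scalings, filters, a replicate block, fewer libraries and each library left out.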

Additional observations from a re-analysis of the deposited data

Results flagged for a closer look

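The change from EpiLC to day 6 without cytokines differed between WT and TKO for 2 of 7 members, by edgeR's test of the interaction. In that test 37% of all genes were called. For Tfap2a the difference in log2 fold change was -1.52 (SE 0.50, adjusted p = 0.0255), with means of 12.6 and 367 normalised counts in WT EpiLC and day 6 and 52.5 and 516 in TKO. For Foxd3 it was 2.72 (SE 0.91, adjusted p = 0.0287), with means of 2130 and 68.9 in WT and 810 and 191 in TKO, and the 2 WT libraries of day 6 were at 132 and 5.79. Foxd3 was not called by DESeq2 (adjusted p = 0.06) or in a fit of only the libraries compared (adjusted p = 0.111, edgeR). Both the Tfap2a and the Foxd3 call were lost in some refits that left out 1 library.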

How the results depend on the processing

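Counts of members called are out of 7. A fit of only the libraries compared called 3 (against 5) in WT day 6 against day 2 without cytokines, 5 (against 2) in TKO against WT at day 2, 1 (against 2) in TKO against WT at day 6 with cytokines, 5 (against 3) in TKO day 2 against EpiLC and 1 (against 0) in TKO day 6 against day 2 without cytokines, and 4 (against 2) for cytokines in TKO at either day. A log2 fold change beyond 2 left 1 (against 2) in WT day 6 with cytokines against EpiLC, in TKO against WT in EpiLCs and at day 6 with cytokines, and in the interaction. With no filter on low counts, TKO against WT in EpiLCs gave 4 (against 2). A fit without both WT libraries of day 6 without cytokines, chosen after seeing the data, called 4 (against 2) in TKO against WT in EpiLCs and at day 2, 5 (against 3) in TKO day 2 without cytokines against EpiLC, 1 (against 0) in TKO day 2 with cytokines against EpiLC and 4 (against 2) for cytokines in TKO at day 6. The cause was not tested.

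With 1 library left out at a time, the WT comparisons gave 3 to 5 from EpiLC to day 2, 4 to 5 from day 2 to day 6, 4 to 5 from EpiLC to day 6, 1 to 2 for day 6 with cytokines against EpiLC and 3 to 5 for cytokines at day 6. TKO against WT gave 0 to 4 in EpiLCs, 1 to 5 at day 2, 5 to 6 at day 6 without and 0 to 2 with cytokines. Within TKO they gave 1 to 5 from EpiLC to day 2 and 0 to 0 from day 2 to day 6 without cytokines, 0 to 1 in either step with cytokines, 1 to 3 for cytokines at day 2 and 1 to 4 at day 6. The interaction gave 0 to 3. Of 2016 member values, 1924 kept their call, 57 lost it and 35 gained it, and no called value changed direction. Library size alone moved the median of all genes from 0.05 to 0.73 in WT day 6 against EpiLC.

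Same-numbered libraries of different conditions deviated together only weakly, with correlations from -0.156 to 0.182 over 36 pairs of conditions (median 0.012). Of these, 6 were above 0.1 and 4 below -0.1. The labels' numbers were not taken as pairs, and whether some conditions shared a batch was not tested. With a replicate block, 110 of 112 member values kept their call, Tfap2b in TKO day 2 against EpiLC lost it (adjusted p = 0.0525, edgeR) and Sox10 in TKO against WT EpiLCs gained it (1.93, adjusted p = 0.0363, edgeR).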

Other observations

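Snai2 and Zeb2 were chosen after their values were seen. Both belong to the list of 21 other crest specifiers, whose median log2 fold change from WT EpiLC to day 6 without cytokines was 5.30. Snai2 alone therefore does not stand for that list. Snai2, a repressor used to mark crest leaving the neural tube, stayed between 0 and 18.3 normalised counts in all 18 libraries, with 4.53 and 5.79 in WT day 6 without cytokines, where Sox9 was at 1440 and 1120. Zeb2, which acts in the same transition and in neural progenitors, was at 1840 and 1220 in WT day 2 and 2100 and 1530 in WT day 6 without cytokines, and at 204 to 328 in TKO aggregates without cytokines. Tfap2c, which both germ cells and surface ectoderm make, was at 1540 to 1790 in TKO aggregates without cytokines and at 29 to 57.9 in those of WT.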
